A study of Felis catus with 6 samples.

Results

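SMAD7 and ACVR1B are 2 genes of transforming growth factor beta (TGF-beta) family signalling, and they were taken from the authors' deposited table of 633 genes by their gene names. The table, from feline kidney cells of the line PETCC2610, lists the genes that its authors marked as differing between 2 groups of polyA RNA-seq libraries. The group DOX (3 libraries) received DOX, the agent used to induce senescence, and the group DOX+PeptideE (3 libraries) received DOX together with peptide E, a peptide from a Bifidobacterium adolescentis fermentation. All 6 libraries therefore share DOX, cells without DOX were not analysed here, and the labels give neither doses nor times. All cells are of 1 line, and how the cultures of the biological replicates were kept apart is not said.

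In this pathway a secreted ligand binds a type II receptor, which phosphorylates a type I receptor, a serine/threonine kinase in the membrane. An activated type I receptor such as ACVR1B phosphorylates SMAD2 and SMAD3, which join SMAD4 and act on transcription in the nucleus. ACVR1B (ALK4) is a type I receptor for activins and nodal. SMAD7, an inhibitory SMAD, binds activated type I receptors, recruits ubiquitin ligases of the SMURF family to them, and is itself a transcriptional target of the pathway. In kidney, TGF-beta signalling is known for its role in matrix deposition and fibrosis.

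Transcripts of both the receptor and its inhibitor were more abundant with peptide E, ACVR1B by 2.24 times and SMAD7 by 1.85 times in the group means. They were 2 of 293 genes listed higher, and 340 genes were listed lower. The authors chose the listed genes on these same 6 libraries, with a fold change of at least 1.5 and an unadjusted p of at most 0.0498. A difference between the groups is therefore how both genes came to be in the table, and the values and tests below describe its size and its evenness rather than giving independent evidence of it. The values are normalized expression values whose unit is not stated, so levels are compared between libraries and not between genes. Depth is unknown, and sums over the listed genes lay between 34274 and 39465 in the DOX libraries and between 25083 and 33457 in the peptide E libraries, the listed genes being only part of each library. Of 18 tubular epithelial markers, 5 had a row, which were KRT7, KRT18, KRT19, AQP1 and HAVCR1. All 5 were listed lower, as were 340 of all 633 genes of the table. The summed value of these 5 markers was 864 to 1100 with DOX and 580 to 783 with peptide E. The part of this difference in the results below was not tested. None of 14 markers of endothelial cells, fibroblasts, immune cells and podocytes had a row. In such bulk RNA, fewer cells of a type and less RNA per cell cannot be told apart.

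ACVR1B, the receptor, had expression values of 1.66, 1.81 and 1.70 in DOX replicates 1, 2 and 3, and of 2.91, 3.52 and 5.14 in peptide E replicates 1, 2 and 3. The DOX libraries lay close together, every peptide E library was above them, and peptide E replicate 3 stood highest. The mean went from 1.72 ± 0.0777 (SD, n = 3) to 3.86 ± 1.15 (SD, n = 3), a ratio of 2.24. On the log2(value + 1) scale, on which changes of low values come out smaller, ACVR1B rose by 0.81 ± 0.20 (limma log2 fold change ± its standard error, Benjamini-Hochberg adjusted p = 0.00752 over 499 tested genes). The lowest peptide E value exceeded the highest DOX value by 1.10.

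SMAD7, the inhibitor, had expression values of 5.20, 5.66 and 4.69 in DOX replicates 1, 2 and 3, and of 6.48, 9.18 and 13.1 in peptide E replicates 1, 2 and 3. The groups did not overlap, but peptide E replicate 1 was only 0.82 above DOX replicate 2, the highest DOX library. The mean went from 5.18 ± 0.485 (SD, n = 3) to 9.59 ± 3.33 (SD, n = 3), a ratio of 1.85, and SMAD7 rose by 0.73 ± 0.22 on the same scale (limma adjusted p = 0.0139). Without peptide E replicate 2 the fold change of SMAD7 was 0.73 and its limma adjusted p 0.0523, whereas ACVR1B kept its call without any 1 library. In 2-sided exact permutation tests both genes had p = 0.1, the smallest value that 3 against 3 libraries allow.

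**Figure D1:**
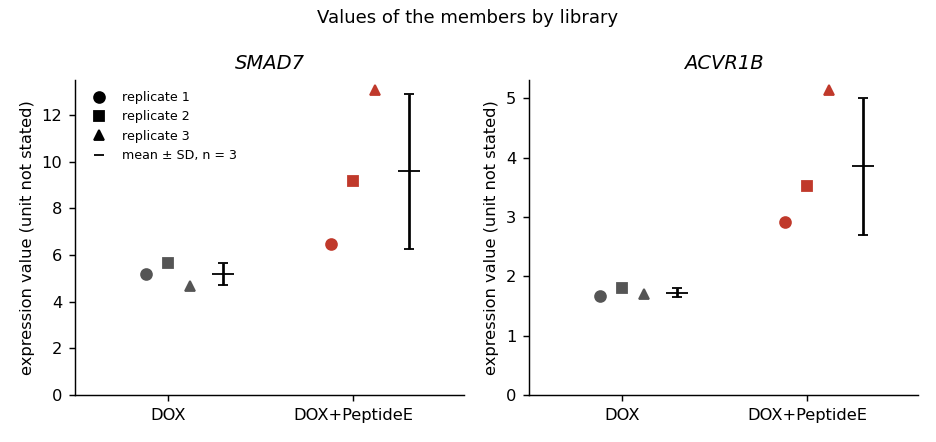
Expression values (linear axis from 0, unit not stated) of SMAD7 and ACVR1B in each library, by group; circles, squares and triangles are replicates 1, 2 and 3, and the bar gives the mean ± SD of 3 libraries. All peptide E points lie above all DOX points, with replicate 1 lowest and replicate 3 highest in both genes.

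These calls have to be read against the table. Of the 499 tested genes, 47.5% passed the limma threshold in the higher direction, and of the 242 tested genes that the authors listed higher, 97.9% did. Peptide E libraries lay wholly above DOX libraries in 275 of all 633 listed genes (43.4%), SMAD7 and ACVR1B among them. As 293 genes were listed higher and 340 lower, such a gap was usual for a gene listed higher. Among the 242 genes, the limma log2 fold change of ACVR1B ranked 69th from the highest and that of SMAD7 127th, near the middle. On this log2(value + 1) scale, neither fold change stood out in size among the genes listed higher. These ranks depend on the scale, on which changes of low values come out smaller. By the authors' fold changes, SMAD7 had the 11th smallest of the 293 genes listed higher and ACVR1B the 216th smallest.

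In the authors' deposited table, ACVR1B had a fold change of 1.81 (log2 0.85) and an adjusted p of 0.0347. SMAD7 had a fold change of 1.504 (log2 0.59) and an adjusted p of 0.0281 in the authors' deposited table, in which 32.5% of all 633 genes were listed higher with an adjusted p under 0.05. This places SMAD7 just inside the fold threshold: it had the 11th smallest fold change of the 293 genes listed higher, of which the smallest was 1.5004. ACVR1B had the 216th smallest. The authors' fold changes are lower than the ratios of the deposited values, by a median log2 difference of 0.27 over the 196 genes whose group means both reached 5.

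The same peptide E library was lowest in both genes, and the same library was highest. Relative to the mean of the DOX libraries, ACVR1B stood at log2 ratios of 0.76, 1.03 and 1.58 in peptide E replicates 1, 2 and 3, and SMAD7 at 0.32, 0.82 and 1.34. In the DOX libraries these log2 ratios stayed between -0.05 and 0.07 for ACVR1B and between -0.14 and 0.13 for SMAD7. The spread between replicates was thus wider with peptide E: the coefficient of variation went from 4.51% to 29.9% in ACVR1B and from 9.36% to 34.7% in SMAD7. Over the tested genes listed higher, the median coefficient of variation was 9.32% with DOX and 26.7% with peptide E, so the wider spread with peptide E was not limited to the members. ACVR1B was below this median with DOX, and both members were above it with peptide E. All these coefficients are of the values as deposited, and they depend on the scale of whole libraries. With the fitted library factors described below, the peptide E values lay closer together, from 2.84 to 4.13 in ACVR1B and from 6.33 to 10.5 in SMAD7.

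This joint order was the usual one in the table. Replicate 1 was the lowest and replicate 3 the highest peptide E library in 206 of the 242 tested genes listed higher (85.1%), and the reverse order held in 105 of 257 tested genes listed lower (40.9%). These counts moved with the scale of whole libraries. When libraries were multiplied by factors fitted to the authors' fold changes, 0.977, 0.959 and 0.803 for peptide E replicates 1, 2 and 3 and 1.07 to 1.12 for the DOX libraries, the order held in 131 of the 242 genes listed higher (54.1%), fewer than before, and the reverse order in 132 of the 257 genes listed lower (51.4%), more than before. SMAD7 and ACVR1B kept it on that scale. ACVR1B then had values of 1.83, 1.94 and 1.91 with DOX and of 2.84, 3.38 and 4.13 with peptide E. SMAD7 had 5.75, 6.06 and 5.27 with DOX and 6.33, 8.80 and 10.5 with peptide E, so that peptide E replicate 1 came close to the highest DOX library.

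Because a factor common to a whole library cancels in a ratio of 2 genes, SMAD7 was also set against ACVR1B within each library. The log2 ratio of the SMAD7 value to the ACVR1B value was 1.65, 1.64 and 1.46 in DOX replicates 1, 2 and 3 and 1.15, 1.38 and 1.35 in peptide E replicates 1, 2 and 3. The ratio was lower in every peptide E library than in every DOX library, and lowest in peptide E replicate 1. Its mean was 1.59 ± 0.105 (SD, n = 3) with DOX and 1.30 ± 0.123 (SD, n = 3) with peptide E, a difference of -0.29, with p = 0.1 in the 2-sided exact permutation test, the smallest value possible here. The design could not reach a p under 0.05 for this difference. The difference depended on the constant added to the values. With the pseudocount of 1 used for the fold changes it was -0.08 (exact permutation p = 0.5), and with a pseudocount of 5, above every DOX value of ACVR1B, it was 0.10 (exact permutation p = 0.3).

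**Figure D2:**
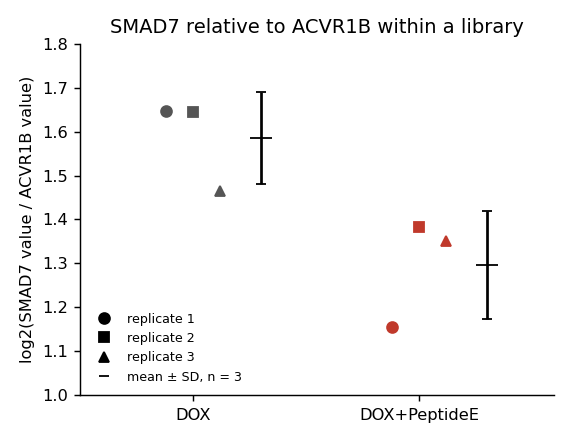
Log2 ratio of the SMAD7 value to the ACVR1B value in each library (axis from 1 to 1.8), by group; symbols mark replicates and the bar gives the mean ± SD of 3 libraries. The DOX libraries lie at 1.46 to 1.65 and the peptide E libraries at 1.15 to 1.38.

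Of 131 symbols on lists of the pathway's parts, 7 had a row in the table (5.34%), and 126 were found in the RefSeq gene table of the cat by symbol or synonym. Over all genes, 548 of the 20453 protein-coding symbols in that RefSeq table had a row (2.68%). The 7 include SMAD7 and ACVR1B, which were taken from the table, and the lists were chosen with earlier results known. The 131 symbols were also not limited to those in RefSeq, so these shares do not measure an excess of pathway genes. The table lacked rows for most of the chain between ligand and nucleus. All 5 type II receptors lacked a row, as did the other 6 of 7 type I receptors, among them TGFBR1, the type I receptor for TGF-beta itself. None of the 6 receptor-activated and common SMADs had a row, so neither SMAD2 nor SMAD3, the substrates of ACVR1B, nor their partner SMAD4 can be described. SMAD3 phosphorylation, which the series title names, is not seen in RNA. SMAD6, the other inhibitory SMAD, had no row, and neither did any of 9 co-receptors, 10 extracellular inhibitors such as FST and BAMBI, 13 intracellular negative regulators including SMURF1, SMURF2 and SKIL, or 3 corepressors. None of the 21 symbols on the list of transcriptional targets had a row, among them CCN2, COL1A1 and ID1. SMAD7, itself a target, was counted with the inhibitory SMADs and not on that list. Genes without a row were not analysed here.

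The other 5 listed genes were spread over ligands, storage in the matrix and nuclear partners. All 5 pathway genes above the filter, which were SMAD7, ACVR1B, FBN1, CREBBP and EP300, passed the limma threshold in the higher direction. All 5 had been listed higher by the authors, and 97.9% of the tested genes listed higher passed, so this count is what the listing gives (47.5% of all tested genes were called higher and 23.6% lower). For the same reason none of the 5 could be expected among the lower calls, and none was, at an adjusted or an unadjusted limma p under 0.05. Without peptide E replicate 2, only ACVR1B and FBN1 of these 5 passed, while the higher calls over all tested genes fell from 237 to 142 and the lower calls from 118 to 38. The higher calls numbered 237 and the lower calls 118 over all tested genes, against 188 and 250 after centring each library on its median and 224 and 250 with the fitted library factors. These scalings moved the log2 fold changes of all tested genes by medians of -0.30 and -0.23. The 5 pathway genes stayed higher and past the threshold under both. All tested genes had been listed as differing, so the median used for centring does not rest on unchanged genes and cannot show which scale is right.

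Among the genes of latency and matrix storage, FBN1 encodes fibrillin, a microfibril protein to which latent TGF-beta complexes are anchored. Its values were 12.64, 12.62 and 12.58 in the DOX libraries and 16.10, 24.99 and 35.05 in peptide E replicates 1, 2 and 3. The DOX libraries were nearly equal and the peptide E libraries all higher and far apart. FBN1 rose by 0.89 ± 0.23 on the log2(value + 1) scale (± standard error, limma adjusted p = 0.00856).

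ITGB8 encodes an integrin subunit that takes part in the activation of latent TGF-beta. Its values were low, at 0.35, 0.43 and 0.45 with DOX and 0.82, 0.82 and 0.84 with peptide E, and it was below the filter. Unlike SMAD7 and ACVR1B, it was nearly equal in the 3 peptide E libraries, with a coefficient of variation of 1.40%. The 2-sided exact permutation test gave p = 0.1, and in a fit of all 633 genes without a filter its limma log2 fold change was 0.37 (adjusted p = 0.0118). On the scale of the fitted library factors its peptide E values were 0.801, 0.786 and 0.675, with replicate 3 the lowest.

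CREBBP and EP300 are closely related acetyltransferases that serve as coactivators of SMAD complexes and of many other transcription factors. CREBBP had values of 2.68, 2.64 and 2.45 with DOX and of 3.53, 5.26 and 6.77 with peptide E, and rose by 0.75 on the log2 scale (limma adjusted p = 0.0111). EP300 had values of 2.26, 2.51 and 2.21 with DOX and of 2.95, 5.14 and 7.11 with peptide E, and rose by 0.81 on the log2 scale (limma adjusted p = 0.0133). In both genes the groups did not overlap, and peptide E replicate 1 was lowest and replicate 3 highest, as in SMAD7 and ACVR1B. Without peptide E replicate 2 the limma adjusted p was 0.0512 for CREBBP and 0.0543 for EP300.

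MSTN, which encodes the ligand myostatin, was the only listed ligand of 24 and the only listed pathway gene that was lower. It was listed at 0.08, 0.09 and 0.11 with DOX and at 0, 0 and 0.03 with peptide E, so close to 0 that no fold is given. It was below the filter, the authors' deposited table gave it an adjusted p of 1, and its limma adjusted p without a filter was 0.0263.

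**Figure D3:**
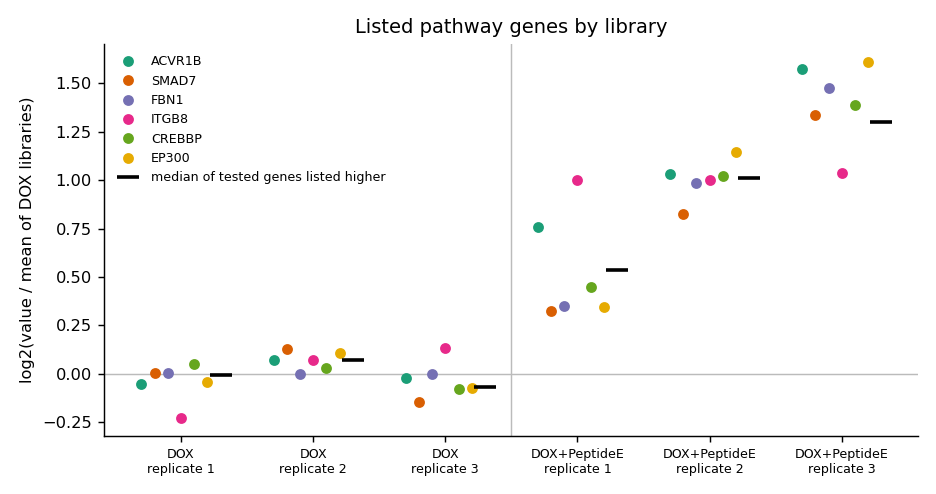
Log2 ratio of each value to the gene's mean over the DOX libraries, for the 6 listed pathway genes other than MSTN, in each of 6 libraries; black bars give the median of the 242 tested genes listed higher, and points are set side by side for legibility. ACVR1B, SMAD7, FBN1, CREBBP and EP300 are lowest in peptide E replicate 1 and highest in replicate 3, and ITGB8 lies between 1 and 1.03 in all 3 peptide E libraries.

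Set against the median of the tested genes listed higher, which stood at log2 ratios of 0.54, 1.01 and 1.30 in peptide E replicates 1, 2 and 3, the members lay on opposite sides of it in peptide E replicates 1 and 2. ACVR1B was above that median in all 3 peptide E libraries. SMAD7 was below it in replicates 1 and 2 and slightly above it in replicate 3. FBN1, at 0.35, 0.99 and 1.47, was likewise below the median in replicates 1 and 2 and above it in replicate 3. CREBBP (0.45, 1.02 and 1.39) and EP300 (0.34, 1.14 and 1.61) were below it in replicate 1 but above it in replicates 2 and 3.

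The likeness of 2 genes was measured as the root mean square difference of their log2(value + 1) deviations from their own DOX means over the 6 libraries, with 0 for identical profiles. Over 412 other tested genes with a symbol, the genes nearest to SMAD7 were MRTFB (0.0418), COL4A4 (0.0460), PNMA1 (0.0574), MIDEAS (0.0614) and TLE4 (0.0680). MRTFB encodes a coactivator of serum response factor, COL4A4 a chain of basement membrane collagen, and TLE4 a transcriptional corepressor. MRTFB had values of 2.36, 2.68 and 2.11 with DOX and of 3.19, 4.87 and 6.42 with peptide E, so that the order of the libraries was that of SMAD7 in both groups. CREBBP was the sixth nearest to SMAD7 (0.0689), EP300 ranked 24th (0.0846), ACVR1B 67th (0.113) and FBN1 101st (0.140). The median over the compared genes that were listed higher was 0.142, so FBN1 was about as far from SMAD7 as such a gene usually was.

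The genes nearest to ACVR1B by the same measure were SUN1 (0.0239), FOXD1 (0.0385), ZSCAN18 (0.0430), CYP2U1 (0.0444) and YLPM1 (0.0482). SUN1 encodes a protein of the inner nuclear membrane, and FOXD1 a forkhead transcription factor known from the renal stroma. SUN1 had values of 12.53, 13.14 and 12.41 with DOX and of 18.25, 22.34 and 29.43 with peptide E. No gene was among the 5 nearest of both members, and SMAD7 ranked 69th from ACVR1B. These neighbours depended on the pseudocount: at 0.1 and at 5, 2 of the 5 stayed nearest to SMAD7, and 1 of the 5 stayed nearest to ACVR1B. With the fitted library factors, 3 of the 5 stayed nearest to SMAD7 and all 5 nearest to ACVR1B.

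**Figure D4:**
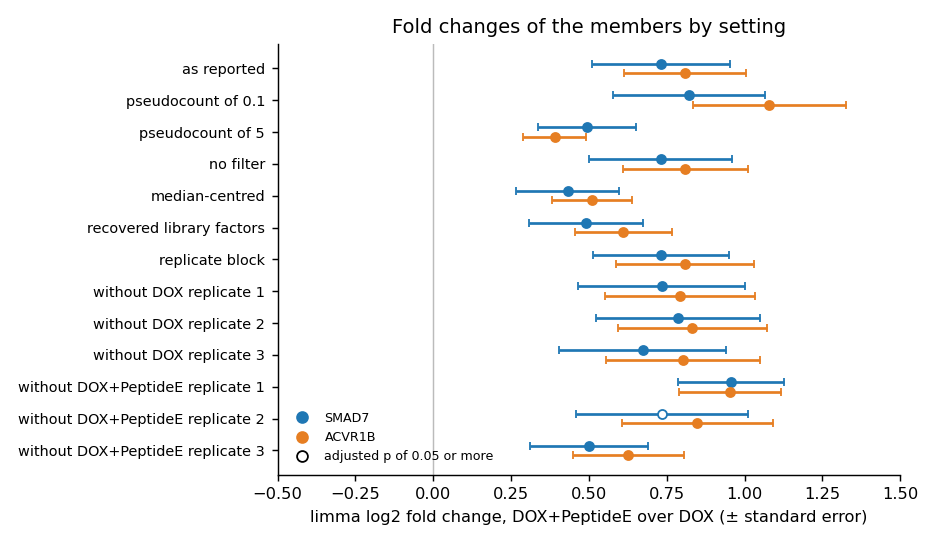
Limma log2 fold change of SMAD7 and ACVR1B, DOX+PeptideE over DOX, with its standard error, as reported and under 12 other settings; open symbols mark an adjusted p of 0.05 or more. The values run from 0.43 to 0.96 for SMAD7 and from 0.39 to 1.08 for ACVR1B, and SMAD7 without peptide E replicate 2 is the only open symbol.

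Both members kept their direction in all 12 other settings of the limma fit, as drawn in the plot of fold changes by setting. After median-centring the log2 fold change was 0.43 for SMAD7 and 0.51 for ACVR1B, against 0.73 and 0.81 as deposited. With a pseudocount of 5, which weighs more on a gene of low value, that of ACVR1B was 0.39 and that of SMAD7 0.49. Since neither gene overlapped between the groups, leaving out a library could not have changed a sign.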

How the data were processed

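PolyA RNA of 6 libraries was analysed, grouped and numbered by their titles. Per the submitters' processing notes, FastQC 0.11.9 and fastp 0.19.5 were used. The aligner, build, annotation and use of strand were not given in the sources used here, so coordinates and sequences are not printed. The authors deposited 1 table of 633 genes marked significant. The signal in its 6 library columns was normalized by the authors before deposit, by a method and in a unit that are not stated. The authors' deposited fold changes (ratios), their log2 values and the authors' p-values were copied and not recomputed.

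Values were transformed as log2(value + 1). The 499 genes whose mean reached 1 in either group entered a limma fit (version 3.58.1, R 4.3.3) with a variance trend and Benjamini-Hochberg adjustment over these genes (threshold 0.05). Its p-values set each difference against the spread between these libraries, with 1 estimate of spread per gene shared by both groups. The wider spread with peptide E was not modelled apart. In simulated data (499 genes) in which both groups had the spread of the DOX libraries, 82% of changes of 0.5 (log2) and 99% of changes of 1 were called. Of the 299 unchanged genes, 1.00% were called. The simulated spreads were shuffled across genes, so they were not tied to the level of a gene. All real genes had been listed as differing, unlike the simulated ones. Over the tested genes listed higher, the median coefficient of variation of the values as deposited was 9.32% with DOX and 26.7% with peptide E. The simulated rates therefore do not carry over to the wider spread with peptide E. Single values were compared by exact permutation in Python 3.11.15. Depth is unknown, so no counting interval is given.

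The members, the 12 pathway lists and the settings were chosen with earlier results of these data known. A symbol of these lists is not reported here and is not counted. Named were both members, each listed gene of those lists, and the 5 genes nearest to each member by profile. Library factors were fitted to the authors' fold changes by least squares, with less weight on large residuals. The fit used the 196 genes whose group means both reached 5. SMAD7 was among these genes and ACVR1B was not, so the rescaled values of SMAD7 rest in part on its own authors' fold change. Libraries of equal replicate number were checked for shared deviations, and pairing was not used.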

Additional observations from a re-analysis of the deposited data

How the results depend on the processing

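In limma, SMAD7 kept its sign and its call in 11 of 12 other settings and ACVR1B in 12 of 12. Leaving out 1 library at a time gave log2 fold changes of 0.50 to 0.96 for SMAD7, with its call lost without peptide E replicate 2, and of 0.63 to 0.95 for ACVR1B. The pathway genes called higher numbered 2 to 5 with 1 library left out, and those called lower 0 in each such fit. Without the filter 1 pathway gene, MSTN, was called lower. Over all tested genes, the higher calls numbered 142 to 240 and the lower calls 38 to 173 with 1 library left out, and the lower calls were 250 after median-centring and 250 with fitted library factors, against 118 as deposited. The counts of higher calls stayed within 188 to 279 in the settings that kept all libraries. The difference in the log2 ratio of SMAD7 to ACVR1B was -0.26 with a pseudocount of 0.1, -0.08 with 1 (exact permutation p = 0.5) and 0.10 with 5, which reversed it, and -0.35 to -0.22 with 1 library left out. Of the 13 further genes tested and named, none changed sign, and 6 lost their call without peptide E replicate 2 (limma adjusted p of 0.0512 to 0.0612), PNMA1 also without DOX replicate 3 (0.0525).

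With the replicate number as a block, the 2 members and the other pathway calls were kept, and the calls over all tested genes were 238 higher and 124 lower. The ratio of SMAD7 to ACVR1B gave p = 0.25 in the exact sign-flip permutation, the smallest that 3 pairs allow. The deviations of equally numbered libraries correlated at 0.34, -0.04 and -0.09 across genes for replicates 1, 2 and 3. Libraries numbered 1 correlated best with each other, and those numbered 2 and 3 did not. Whether the cultures were handled in pairs cannot be told from these values. Unknown depth limits every value near 0, ITGB8 and MSTN above all.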
